A study of Mus musculus with 10 samples.

Results

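The genes described here are 10 that mark astrocyte identity: Gfap, Vim, Aqp4, Gja1, Slc1a2, Slc1a3, Glul, Aldh1l1, S100b and Sox9. They were picked by name, and every non-control probe annotated with one of these symbols was taken, which gave 16 probes among the 55681 on the array. Of the 10 genes, 8 had a probe that was well above background on 2 or more arrays, and these 8 were among the 32209 genes tested. The other 2 were Slc1a3 and Sox9. The question was whether graft cells that had fused with Cre-expressing cells of GFAP-Cre mice held more astrocyte transcripts than the other sorted cells on the same slide.

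All recipients were mice treated with MPTP, a toxin of dopaminergic neurons, and grafted in the midbrain on day 3 after the last injection with lineage-negative haematopoietic stem and progenitor cells (HSPCs). Cells were sorted 1 week later, and each of the 10 samples pooled 2 mice. R26Y hybrids (RFP+YFP+, n = 2) came from Cre/RFP grafts in R26Y mice, whose YFP reporter is switched on by Cre, so any recipient partner can give a hybrid. GFAP-Cre hybrids and FoxA2-Cre hybrids (RFP+YFP+, n = 2 each) came from R26Y-reporter grafts in mice that express Cre from a Gfap or FoxA2 promoter. There YFP requires a partner in which that promoter was or had been active. The pooled unfused group (RFP+, n = 2) joined cells of R26Y and GFAP-Cre recipients, and the FoxA2-Cre unfused group (RFP+, n = 2) came from FoxA2-Cre recipients, spelled Fox2A-Cre in some labels. Red-only cells of the Cre recipients may include graft cells fused to partners without Cre, and the age, sex and strain of the mice are not given in the sources used here.

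Astrocytes are the glial cells that take up glutamate and potassium around synapses, line vessels with their endfeet and are joined by gap junctions. Gfap and Vim encode their intermediate filaments, Slc1a2 and Slc1a3 their glutamate transporters, and Glul the glutamine synthetase that turns the glutamate taken up into glutamine. In injured midbrain, astrocytes become reactive and raise Gfap and Vim. Several of these genes are not confined to astrocytes: Vim is also made by blood and vascular cells, and Glul by macrophages.

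Values are log2 scaled signals, that is the scanner's processed signal on a log2 scale with each array's own 75th percentile subtracted, so 0 is that percentile and lower genes are negative. Levels of different probes are not comparable with each other. The share of spots marked by the scanner as well above background ran from 64.3% to 86.7% on the 6 arrays of the first slide (R26Y hybrids, GFAP-Cre hybrids and pooled unfused cells). It ran from 19.8% to 49.2% on the 4 FoxA2-Cre arrays of the second slide. Differences were therefore taken within a slide. The spread behind each SE, interval and limma p-value was still pooled over all 10 arrays of both slides. R26Y hybrid replicate 2 stood apart as the dimmest array of its slide, and results that rest on it are given with and without it. Ptprc, the pan-leukocyte CD45 gene, was well above background on all 10 arrays, between -3.35 and -2.68. The labels do not say that replicates were separate experiments, so p-values measure only the spread between these samples.

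Astrocyte identity genes were detected in every group, and in no larger number in GFAP-Cre hybrids. A probe well above background was found for 7 and 6 of the 10 genes in GFAP-Cre hybrid replicates 1 and 2. The 7 include Sox9, a borderline call. The pooled unfused replicates had 7 and 8, and the R26Y hybrid replicates 8 and 5. On the second slide, the FoxA2-Cre hybrids had 2 and 4 and the FoxA2-Cre unfused cells 5 and 5. GFAP-Cre hybrids thus lay within the range of their slide, and the lowest counts were on the dim second slide. Per probe, 68.8% of the 16 probes were above background in both GFAP-Cre hybrids, where 81.9% and 82.7% of all probes were. In the pooled unfused cells the share was 75% and 81.2%, against 83.3% and 87.1% of all probes.

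**Figure D1:**
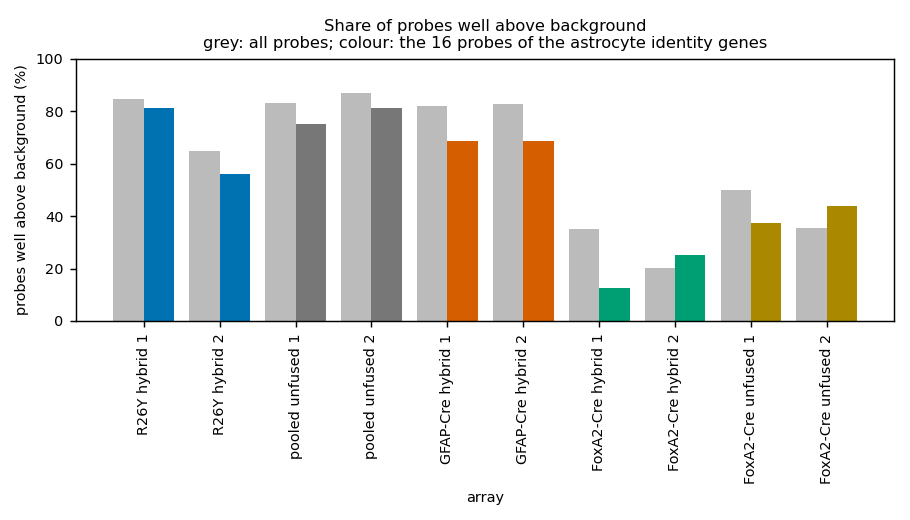
Share of probes well above background (percent, vertical axis) on each of the 10 arrays (horizontal axis). Grey bars show all probes and coloured bars the 16 probes of the astrocyte identity genes. On the 6 arrays of the first slide the coloured bars run from 56.2% to 81.2%, and both GFAP-Cre hybrids are at 68.8%.

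No astrocyte identity gene passed the test between GFAP-Cre hybrids and pooled unfused cells, and 7 of the 8 tested had a difference below 0. Their median log2 difference was -1.07, against 0.03 over all genes tested. None passed at an adjusted p of 0.05 in limma (background 0% of genes) or at an unadjusted p of 0.05 (1.62%). Not passing does not show equal levels, since 0% of genes changed by a log2 of 4 in simulated data passed in this comparison. GFAP-Cre hybrids were lower on both arrays than on either pooled unfused array for Gfap, Slc1a2 and Gja1, 3 of 8 genes, where 14.4% of all genes were. For Gja1 only 1 of these 4 arrays was above background, so its order is mostly one of background values. Gja1, 1 of the 7 below 0, passed the filter only through a pooled unfused and an R26Y array. Sox9, above background only in a GFAP-Cre hybrid, did not pass it, so these counts and the median leave it out. GFAP-Cre hybrids were higher in this way for 0 of 8 genes, where 20% of all genes were. The sign of all 8 differences was the same under the 4 other scalings. The median was nearer to 0 with normexp background correction (-0.30). With each probe fitted on its own, the median over the 13 probes of these genes was -0.19. It was -0.43 without GFAP-Cre hybrid replicate 2 (0.13 over all genes) and -0.71 without pooled unfused replicate 2 (0.03 over all genes).

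Against R26Y hybrids, the other fused cells of the slide, 6 of the 8 genes had a difference above 0, with a median of 0.40. Over all genes the median was 0.29, a shift that was -0.07 when the 75th percentile was taken over all spots. None passed in limma (background 0%), nor at an unadjusted p of 0.05 (2.75% of genes). Vim alone was higher on both arrays without overlap, 1 of 8 where 20.2% of all genes were, and 0 of 8 were lower (7.52%). The median rests on R26Y hybrid replicate 2: without that array it was -0.83 (0.03 over all genes), and without R26Y hybrid replicate 1 it was 1.00 (0.56 over all genes). Without R26Y hybrid replicate 1, 2182 genes passed in this comparison, none of them an astrocyte identity gene.

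Set against both other groups of the slide at equal weight, GFAP-Cre hybrids had a median difference of -0.25 over the 8 genes (0.17 over all genes). None was higher on both GFAP-Cre arrays than on all 4 others, where 9.74% of genes were, and none was lower, where 3.17% were. None passed in limma (background 0%) or at an unadjusted p of 0.05 (2.02%). These comparisons share arrays, so they are not separate evidence. In sorted bulk samples, fewer cells carrying a transcript and less RNA per cell cannot be told apart.

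**Figure D2:**
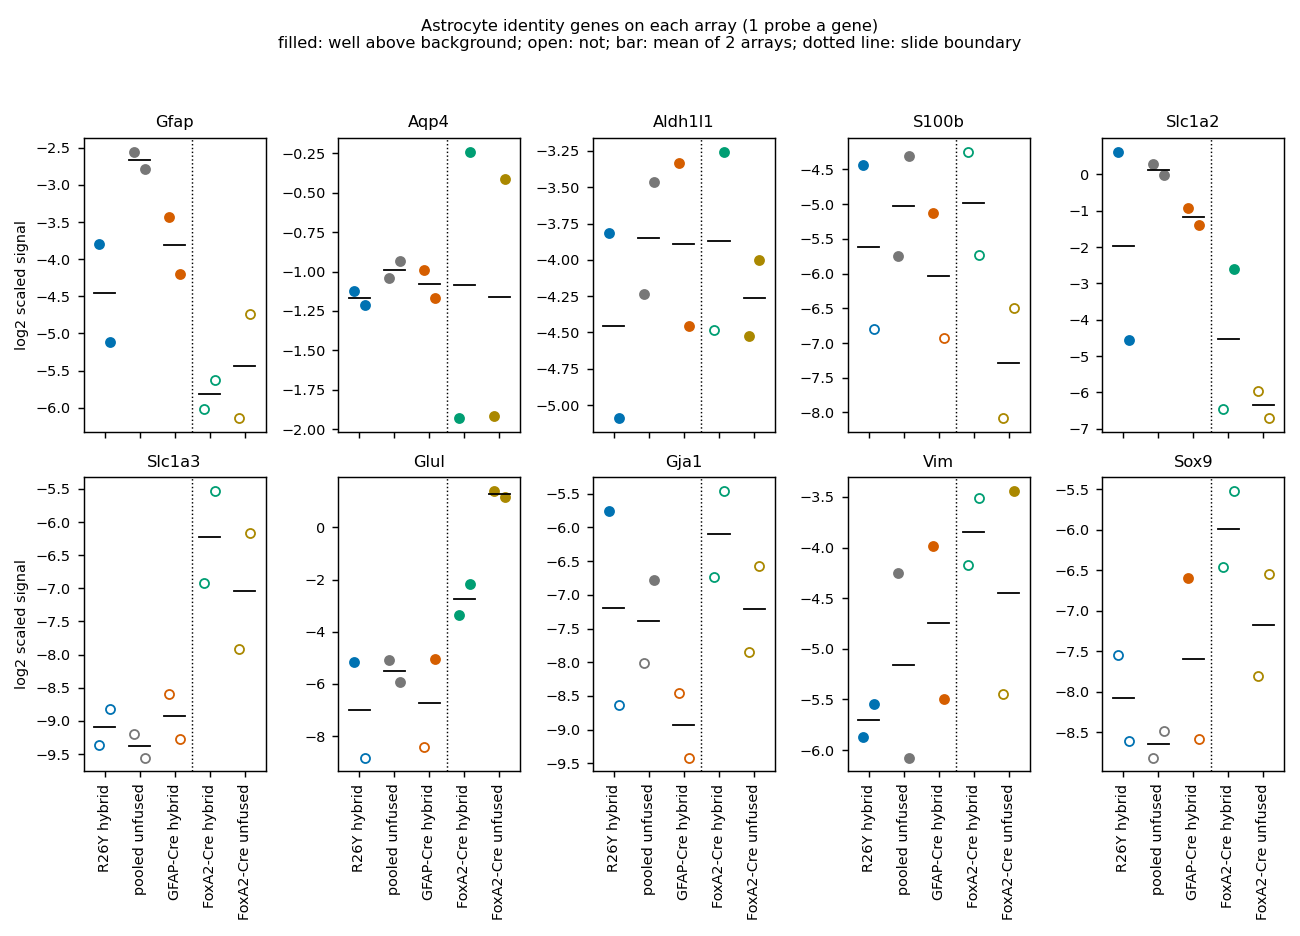
Log2 scaled signal (vertical axes, scaled per gene) of the 10 astrocyte identity genes by group, 2 arrays a group, with bars at the group means. Filled points are well above background and open points are not. Slc1a3 has no filled point on any array, and Glul is highest on the FoxA2-Cre unfused arrays (1.40 and 1.15).

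Gfap, the filament gene whose promoter drives Cre in the GFAP-Cre mice, was measured by 3 probes of 60 bases on mouse chromosome 11 (build mm9, minus strand). They are given with their first 30 bases because they read the same gene and gave different orders of the groups. Capitals mark a string of 12 bases that occurs a second time in the same probe.
A_55_P2157245 (NM_001131020, chr11:102752726-102752785): caaaaggctcacaatacaagttgtcccaat
A_55_P2157250 (NM_010277, chr11:102748864-102748923): tttgaggaactgaaacgtgttgtgttcaag
A_52_P52303 (NM_001131020, chr11:102751813-102751872): ggttatattaacAGAGCTAGCCTAtgctaa
The array files assign the first and the last of these probes to one RefSeq transcript and the middle one to another. Whether each lies in coding or untranslated sequence was not analysed here, because no annotation of that build was used.

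With the first probe, which had the highest mean and represents the gene, Gfap was -3.43 and -4.20 in GFAP-Cre hybrids. It was -2.55 and -2.79 in pooled unfused cells and -3.79 and -5.11 in R26Y hybrids. All 6 arrays were above background. The pooled unfused cells were highest on both arrays, and the GFAP-Cre and R26Y hybrids overlapped. The log2 difference between GFAP-Cre hybrids and pooled unfused cells was -1.14 ± 0.70 (SE; limma, adjusted p 1.00), with a 95% interval from -2.77 to 0.48. The upper end is 1.40 times the unfused level. Against R26Y hybrids the difference was 0.63 ± 0.70 (SE; limma, adjusted p 1.00). It was 1.68 between the row 1 arrays of the slide and -0.41 between the row 2 arrays, and its sign turned with the authors' matrix (-0.03) and without R26Y hybrid replicate 2 (-0.02). The R26Y hybrids differed from pooled unfused cells by -1.78 ± 0.70 (SE), the only Gfap difference with an unadjusted p under 0.05 (limma, p 0.0360, adjusted p 1.00, 1.39% of genes). Without R26Y hybrid replicate 2 it was -1.12.

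The second Gfap probe put the pooled unfused cells lowest instead of highest. It read -4.06 and -4.22 in GFAP-Cre hybrids, -4.30 and -4.27 in R26Y hybrids and -5.18 and -4.56 in pooled unfused cells. Both GFAP-Cre hybrids were thus above the 4 other arrays of their slide, though only by 0.04 for the nearest pair, -4.22 against -4.27. Of all 50000 probes fitted on their own, 10.1% were higher on both GFAP-Cre arrays in the same way. The difference from pooled unfused cells was 0.73 ± 0.63 (SE; limma, adjusted p 1.00), with a 95% interval whose upper end, 2.18, is 4.54 times the unfused level. It stayed above 0 under all 4 other scalings, from 0.52 to 0.70. The difference from R26Y hybrids was 0.14 ± 0.63 (SE; limma, adjusted p 1.00) and was below 0 under 3 of the 4 scalings. R26Y hybrids differed from pooled unfused cells by 0.59 ± 0.63 (SE; limma, adjusted p 1.00), higher on both arrays. An exact two-sided permutation test of the 2 GFAP-Cre arrays against the 4 others gave p 0.133, the smallest that its 15 arrangements allow. The first probe gave p 0.933 in the same exact permutation test. Probe A_52_P52303 was above background on 0 of 10 arrays.

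On the second slide the first Gfap probe was above background on 0 of 4 arrays and the second on FoxA2-Cre unfused replicate 1 only, at -5.15. No Gfap difference between FoxA2-Cre hybrids and unfused cells can be read at that signal. The first probe differed by -0.38 ± 0.70 (SE) between values at background.

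Vim, the second filament gene (chr2:13504232-13504291), was -3.99 and -5.50 in GFAP-Cre hybrids. It was -4.25 and -6.07 in pooled unfused cells and -5.87 and -5.54 in R26Y hybrids. All 6 values were above background, and the groups overlapped except that both GFAP-Cre hybrids exceeded both R26Y hybrids, by 0.04 for the nearest pair. The differences were 0.42 ± 0.93 (SE) from pooled unfused cells and 0.96 ± 0.93 (SE) from R26Y hybrids (limma, adjusted p 1.00 for each). Vim was the single gene of the 8 above 0 against pooled unfused cells. Among the FoxA2-Cre arrays only unfused replicate 2 was above background, at -3.44.

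Aqp4, the water channel of astrocyte endfeet, had by its main probe the narrowest range of the 10 genes on the first slide, and that probe was above background on all 10 arrays. It was -0.99 and -1.17 in GFAP-Cre hybrids, -1.04 and -0.93 in pooled unfused cells and -1.12 and -1.22 in R26Y hybrids. The groups overlapped, apart from R26Y hybrids lying below both pooled unfused arrays. GFAP-Cre hybrids differed from pooled unfused cells by -0.09 ± 0.73 (SE; limma, adjusted p 1.00, 95% interval -1.79 to 1.61). That SE pools both slides. The SD of the 2 arrays was 0.13 in GFAP-Cre hybrids, 0.08 in pooled unfused cells and 0.07 in R26Y hybrids. It was 1.20 in FoxA2-Cre hybrids and 1.06 in FoxA2-Cre unfused cells. On the second slide Aqp4 was -1.93 and -0.24 in FoxA2-Cre hybrids and -1.91 and -0.41 in FoxA2-Cre unfused cells, so the replicates of a group were further apart than the groups. A second Aqp4 probe was more variable, at -3.20 and -6.06 in the GFAP-Cre hybrids.

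Gja1, which encodes connexin 43 of astrocyte gap junctions (chr10:56109814-56109873, 10 spots an array), was above background on 2 arrays. These were R26Y hybrid replicate 1 (-5.76) and pooled unfused replicate 2 (-6.77). Both GFAP-Cre hybrids were not well above background (-8.46 and -9.42), as were R26Y hybrid replicate 2 (-8.63) and pooled unfused replicate 1 (-8.02). The fitted differences of GFAP-Cre hybrids, -1.55 ± 1.05 (SE) from pooled unfused cells and -1.75 ± 1.05 (SE) from R26Y hybrids, did not pass (limma, adjusted p 1.00 for each). No fold is given, because the group above background was so on 1 array only and its mean did not exceed the background floor.

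Slc1a2, the main glutamate transporter of forebrain astrocytes (GLT-1), was also read by 3 probes that disagreed, all on the plus strand of chromosome 2. Their first 30 bases are shown for that reason.
A_55_P1955412 (NM_011393, chr2:102617752-102617811): aagcaactctaatcagtgtgtctatgccgc
A_55_P2392625 (NM_001077514, chr2:102626380-102626439): aacccagtttccagcattcagacatcagta
A_55_P2136847 (NM_001077514, chr2:102622252-102622311): gtagaatgtttcagagtttcatgggtgccc
The first probe read -0.93 and -1.40 in GFAP-Cre hybrids, 0.29 and -0.03 in pooled unfused cells and 0.63 and -4.56 in R26Y hybrids. Both GFAP-Cre hybrids were below both pooled unfused arrays, and both lay between the R26Y hybrids, which were 5.20 apart. The difference from pooled unfused cells was -1.30 ± 1.72 (SE; limma, adjusted p 1.00, 95% interval -5.30 to 2.70). From R26Y hybrids it was 0.80 ± 1.72 (SE; limma, adjusted p 1.00), and without R26Y hybrid replicate 2 it was -1.80.

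The second Slc1a2 probe read between -6.13 and -4.62 on the first slide, with both GFAP-Cre hybrids (-6.13 and -5.43) below both pooled unfused arrays (-4.62 and -5.11). On the second slide it read 4.30 in FoxA2-Cre unfused replicate 2 and -4.41 in replicate 1. It was not well above background in the FoxA2-Cre hybrids (-5.56 and -3.76). On group means the hybrids were at least 18.2-fold lower, where the mean background floor of -4.25 stands in for them (limma on every probe, adjusted p 0.673). The floors of the 2 hybrid arrays were -5.02 and -3.47, each above the probe's own value there. That fold rests on 1 array, since the other unfused array lay below the floor. The first probe was above background on 1 of the 4 FoxA2-Cre arrays, hybrid replicate 2 (-2.61), and probe A_55_P2136847 on none.

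**Figure D3:**
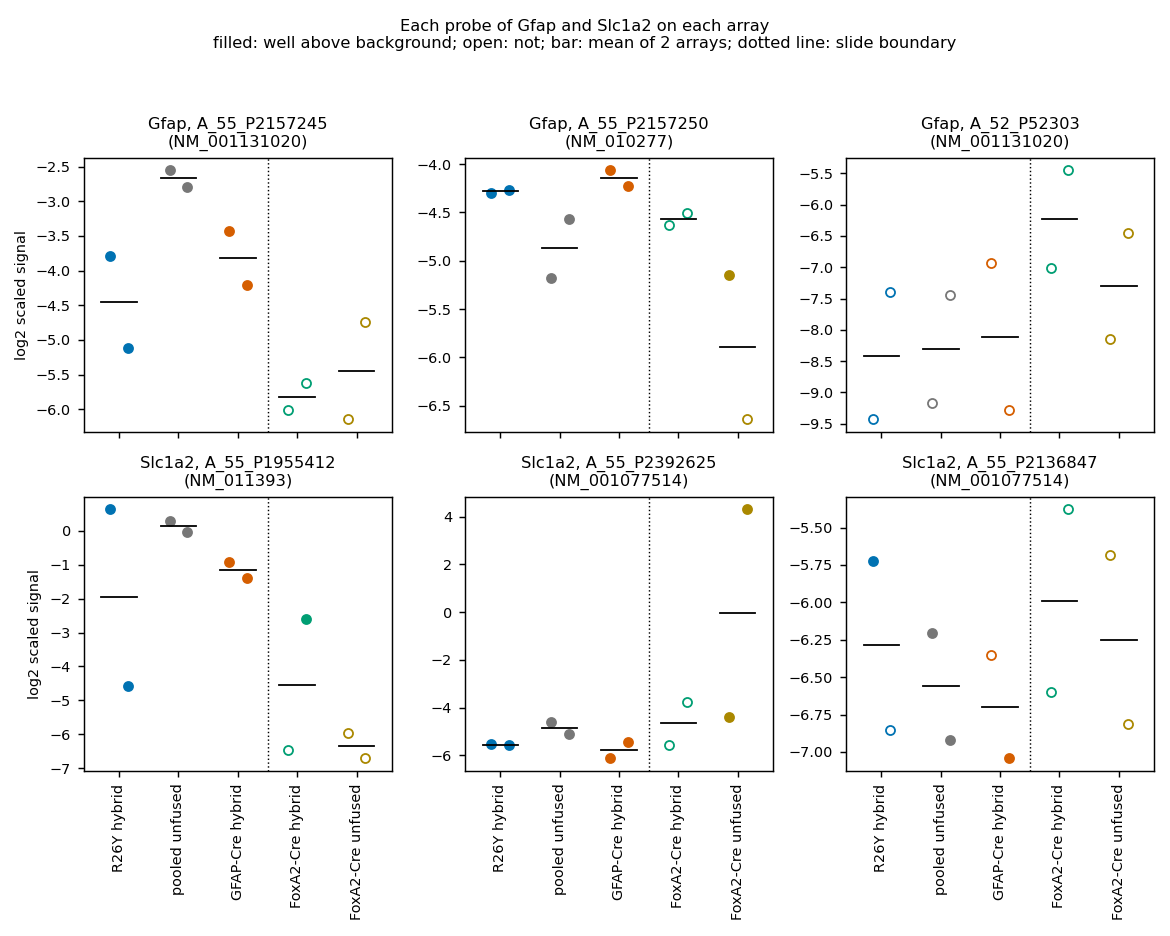
Log2 scaled signal (vertical axes, scaled per probe) of the 3 Gfap probes (top) and the 3 Slc1a2 probes (bottom) by group, 2 arrays a group, with bars at the group means. Filled points are well above background. In GFAP-Cre hybrids the first Gfap probe lies below the pooled unfused arrays and the second above them, and the second Slc1a2 probe has 1 FoxA2-Cre unfused array at 4.30.

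Slc1a3, which encodes the other astrocyte glutamate transporter, GLAST (chr15:8584236-8584295), was well above background on 0 of 10 arrays, at -9.55 to -8.60 on the first slide. Its single probe thus gave only a limit of detection, in GFAP-Cre hybrids as in every other group.

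Glul, the glutamine synthetase gene (chr1:155756765-155756824), was -8.43 and -5.06 in GFAP-Cre hybrids, the first not above background. It was -5.09 and -5.93 in pooled unfused cells and -5.16 and -8.82 in R26Y hybrids, the last not above background. The 3 groups overlapped, and GFAP-Cre hybrids differed from pooled unfused cells by -1.23 ± 1.40 (SE; limma, adjusted p 1.00). Without GFAP-Cre hybrid replicate 1 that difference was 0.45.

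On the FoxA2-Cre slide Glul gave the largest difference of the 8 genes by the probe that stands for each gene. It was -3.37 and -2.16 in FoxA2-Cre hybrids and 1.40 and 1.15 in FoxA2-Cre unfused cells, with all 4 arrays above background and no overlap. The difference was -4.04 ± 1.40 (SE; limma, unadjusted p 0.0208, adjusted p 0.481), with a 95% interval from -7.28 to -0.80. It did not pass, and its adjusted p over the alternatives ran from 0.0645 to 0.916, with the sign kept in all 21. Marker lists of blood cells and microglia were also read in this comparison. Of 10 neutrophil genes, 9 were below 0, with 2 passing as lower (limma, 0.531% of all genes). No gene passed with only the arrays of that slide. The summed scaled signal of 10 neutrophil markers was 1.25 to 1.41 in FoxA2-Cre hybrids, with 2 to 4 of them above background. In FoxA2-Cre unfused cells it was 29.2 to 45.3, with 6 to 8 above background. Of 7 monocyte and macrophage genes, 4 were above 0 and 3 below, with a median of 0.35 (0.36 over all genes). Their summed scaled signal was 243 to 399 in FoxA2-Cre hybrids and 193 to 236 in FoxA2-Cre unfused cells. Nearly all of that sum was Itgam, at log2 7.92 and 8.64 in hybrids and 7.88 and 7.58 in unfused cells. The sum therefore says little about the other genes of the list. Of 11 microglia genes, 8 were above 0, with a median of 0.85 and summed signals of 100.2 to 189 in hybrids and 28.1 to 30.6 in unfused cells. The part of these cells in the Glul difference was not tested.

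Aldh1l1, a folate enzyme gene used as a pan-astrocyte marker, was read by a probe to an Ensembl transcript (ENSMUST00000130418, chr6:90550028-90550087) and one to the RefSeq transcript (NM_027406, chr6:90549091-90549150). The first was -3.33 and -4.45 in GFAP-Cre hybrids, -4.23 and -3.47 in pooled unfused cells and -3.82 and -5.09 in R26Y hybrids, and the 3 groups overlapped. The second was close to even, from -4.06 to -3.63 over the 6 arrays. The difference between GFAP-Cre hybrids and pooled unfused cells was -0.04 ± 0.73 (SE; limma, adjusted p 1.00, 95% interval -1.75 to 1.66). On the second slide the RefSeq probe was above background in both unfused arrays (-4.63 and -3.62) and in neither hybrid, a bound of at least 1.09-fold lower in hybrids (limma on every probe, adjusted p 0.662). That bound rests on 1 array, since the other unfused array lay below the mean floor of -4.25. The Ensembl probe, which represents the gene, went the other way, by 0.40 ± 0.73 (SE; limma, adjusted p 0.858). It was -4.48 (not above background) and -3.25 in FoxA2-Cre hybrids and -4.52 and -4.00 in unfused cells.

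S100b, a calcium-binding protein gene of astrocytes (chr10:75723783-75723842), was above background in 1 of 2 GFAP-Cre hybrids (-5.13, the other -6.93). It was above background in both pooled unfused arrays (-5.74 and -4.31) and in 1 of 2 R26Y hybrids (-4.44, the other -6.80). The groups overlapped, and the difference of GFAP-Cre hybrids from pooled unfused cells was -1.0 ± 1.10 (SE; limma, adjusted p 1.00). None of the 4 FoxA2-Cre arrays was above background for it.

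Sox9, the transcription factor gene of the astrocyte lineage (chr11:112648809-112648868, 10 spots an array), was above background on a single array, GFAP-Cre hybrid replicate 1, at -6.60. The call was borderline: 5 of its 10 spots were marked there, and -6.60 was the lowest signal called above background on that array. GFAP-Cre hybrid replicate 2 was at -8.59, not above background. The other 4 arrays of the slide ran from -8.82 to -7.55, none above background. With 1 of 2 replicates detected, Sox9 was left out of the test and its level in GFAP-Cre hybrids was not settled.

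**Figure D4:**
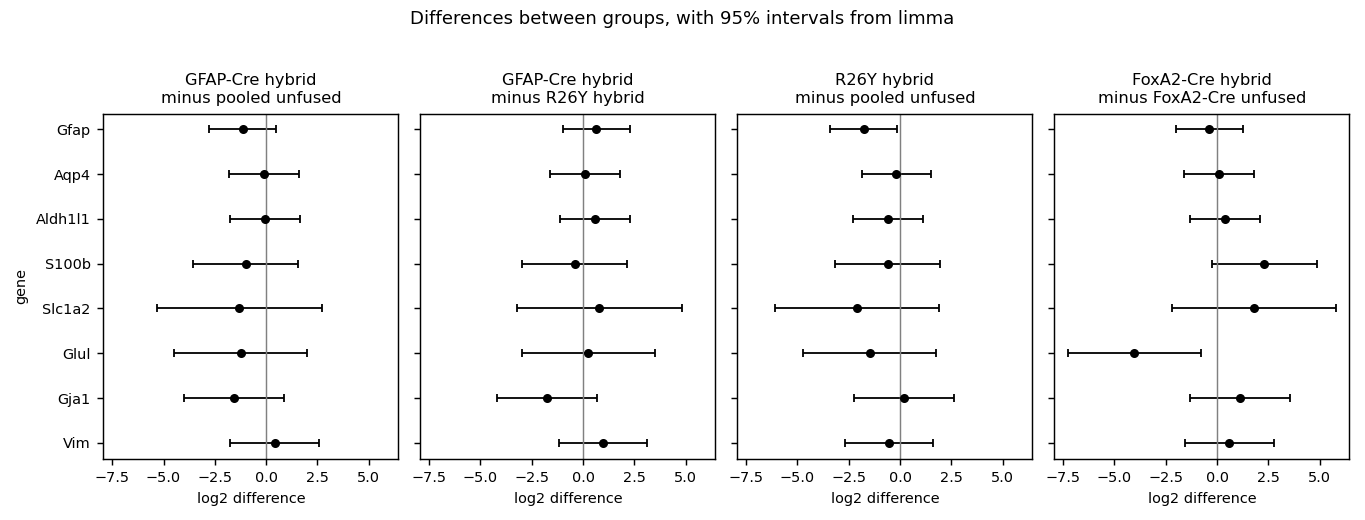
Log2 difference (horizontal axis) of the 8 tested astrocyte identity genes in 4 comparisons, with 95% intervals from limma as bars. In the first panel 7 of 8 points lie below 0 and every interval covers 0. Intervals leave out 0 only for Gfap in R26Y hybrids against pooled unfused cells (-3.41 to -0.15) and for Glul in FoxA2-Cre hybrids against unfused cells (-7.28 to -0.80), before adjustment.

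In R26Y hybrids against pooled unfused cells, which share the unfused arrays with the comparison above, 7 of the 8 genes had a difference below 0 with a median of -0.60 (-0.26 over all genes). None passed in limma (background 0%), 2 were lower on both arrays without overlap (Gfap and Aqp4, 19.6% of all genes) and 0 higher (10.6%). Gfap was lower so by its first probe and higher by its second. The median was 0.19 without R26Y hybrid replicate 2 (0.02 over all genes) and -1.51 without replicate 1 (-0.53 over all genes), when 2317 genes passed and none of the 8 did.

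In FoxA2-Cre hybrids against FoxA2-Cre unfused cells, 171 genes passed (0.531%) and 0 of the 8 astrocyte identity genes. At an unadjusted p of 0.05, 1 of 8 passed (Glul), where 8.65% of all genes did. S100b was higher without overlap, 1 of 8 against 26.5% of all genes, but at values not above background. Glul was lower without overlap, 1 of 8 against 10.6%. The median difference was 0.50 (0.36 over all genes). The hybrid effect itself was compared between GFAP-Cre and FoxA2-Cre recipients as an interaction within slides. There 18 genes passed (0.0559%) and 0 of the 8. None of the 8 had an unadjusted p under 0.05, as 4.95% of all genes did. The smallest p among the 8 was for S100b, at -3.31 ± 1.56 (SE; limma, adjusted p 0.983). The Glul difference of effects was 2.80 ± 1.97 (SE; limma, adjusted p 0.983).

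A longer list of 22 further astrocyte genes gave the same count of 0 passing in the 6 comparisons (limma). Of the 22, 18 were tested, and 12 of them were below 0 in GFAP-Cre hybrids against pooled unfused cells, with a median of -0.12 (0.03 over all genes). At an unadjusted p of 0.05, 0 were higher and 2 lower, where 1.62% of all genes passed in either direction. Slc39a12, a zinc transporter gene, was -4.44 and -5.23 in GFAP-Cre hybrids and -3.01 and -3.30 in pooled unfused cells, a difference of -1.68 ± 0.61 (SE; limma, adjusted p 1.00). It was also below the pooled unfused cells in R26Y hybrids, at -4.91 and -5.62. Slc7a10, an amino acid transporter gene, was above background only in the 2 pooled unfused arrays (-5.59 and -5.88) and was tested through them. It thus passed the filter only through the group where it was high, and its place among the genes below 0 and among the 2 lower is no support. For the same reason the bound against the background floor, at least 2.41-fold lower in GFAP-Cre hybrids, is no support.

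Of the same 18 genes, 3 were higher on both GFAP-Cre arrays than on the 4 other arrays of the slide and 1 was lower, where 9.74% and 3.17% of all genes were. The 1 lower was Slc7a10, not above background in GFAP-Cre or R26Y hybrids, so its order between them is one of background values. Gjb6, the connexin 30 gene, was -4.65 and -3.42 in GFAP-Cre hybrids, -6.52 and -4.67 in pooled unfused cells and -5.89 and -7.59 in R26Y hybrids, the last not above background. The GFAP-Cre hybrids were above the 4 other arrays, by 0.02 for the nearest pair. Its difference from R26Y hybrids was 2.70 ± 1.01 (SE; limma, unadjusted p 0.0290, adjusted p 1.00), and 1.85 without R26Y hybrid replicate 2. Mlc1, a membrane protein gene of astrocyte endfeet, had a difference of -2.10 ± 0.81 (SE; limma, unadjusted p 0.0341, adjusted p 1.00) in the same comparison. It was -8.58 and -7.99 in GFAP-Cre hybrids, neither above background, and -5.59 and -6.80 in R26Y hybrids, the last not above background. Without R26Y hybrid replicate 1 the difference was -1.49. An unadjusted p under 0.05 was found for 2.75% of all genes in this comparison. Fabp7, a fatty acid binding protein gene of radial glia and young astrocytes, was -4.91 and -3.12 in GFAP-Cre hybrids. It was -5.71 and -5.39 in pooled unfused cells and -5.47 and -4.95 in R26Y hybrids. Again both GFAP-Cre hybrids were highest, by 0.04 for the nearest pair, and the difference from pooled unfused cells was 1.53 ± 0.69 (SE; limma, unadjusted p 0.0589, adjusted p 1.00). The remaining gene higher on both GFAP-Cre arrays, Ntsr2, was at -3.88 and -3.68 there and was less close to a tie. It was -4.39 and -4.34 in pooled unfused cells and -4.30 and -5.27 in R26Y hybrids, each above background.

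Markers of other cell types are given beside these values. In GFAP-Cre hybrids against pooled unfused cells, the 10 neutrophil genes had a median of -1.14 with 8 below 0, and 0 passed. Their summed scaled signal was 1.69 to 2.48 in GFAP-Cre hybrids and 3.31 to 5.54 in pooled unfused cells, with 9 to 10 genes above background in both. The R26Y hybrids shared this: against the same unfused cells all 10 genes were below 0, with a median of -1.32 (-0.26 over all genes) and a summed signal of 0.93 to 2.03. The 11 tested microglia genes had a median of 0.65 with 9 above 0, and 0 passed. Their summed scaled signal was 11.0 to 14.1 in GFAP-Cre hybrids and 10.2 to 14.0 in pooled unfused cells, with 11 of 12 above background in both. The part of these cells in the differences of the astrocyte identity genes was not tested.

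Over the 10 arrays, after the mean of each slide was subtracted, the genes whose level followed the first Gfap probe most closely were Nefl (Pearson's r 0.96), Dach2 (0.94), Olfr715b (0.94), Prdx6b (0.93) and Zfp677 (0.92). Nefl encodes a neurofilament subunit. Of the other astrocyte identity genes, Aldh1l1 was nearest to Gfap (r 0.61), followed by Slc1a2 (0.55), Aqp4 (0.47), Vim (0.44), Glul (0.41), S100b and Gja1 (0.37 each). The mean of the 8 genes was followed most closely by Aldh16a1, Kcnt1, Vmn2r81 and Olfr730 (r 0.98 each) and Aimp1 (0.97). These values describe 10 arrays that share 2 slides and differ in brightness, and no test was made of them.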

How the data were processed

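RNA of 10 samples was amplified as cDNA, labelled with Cy3 and measured on Agilent 8x60K mouse arrays, 1 colour each. The authors deposited spot tables of Agilent Feature Extraction 10.7.3.1, whose processed signals, mean signals and local backgrounds are intensities and whose spot marks are values of 0 or 1, per the file headers. They also deposited a matrix of log2 values (median 7.39 on the first slide, 6.26 on the second), whose normalisation is not given in the sources used here.

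The processed signal was put on a log2 scale and centred on the array's 75th percentile over the spots that were above background throughout the 10 arrays. A probe counted as above background with at least 50% of its spots marked so. Probes above background on at least 2 arrays were kept, and the probe with the highest mean stood for a gene (32209 genes). Gene names came from the arrays' annotation, updated through RefSeq accessions (27428 probes matched). A fold is a bound where a group was not above background on any array: the higher of the lowest signal above background and the probe's own value then stands in for it. Groups were compared with limma 3.58.1 in R 4.3.3, with 5 group means, a shared spread and Benjamini-Hochberg adjustment over all genes. Slide and scan coincide. The code was tested on simulated data. The genes and marker lists were chosen with earlier results of these data known. Named genes were the 10 astrocyte identity genes, up to 4 per other list by smallest p, and the 5 most like Gfap or the mean. Itgam was named as the brightest of its list, Ntsr2 to complete a count, and Cx3cr1, Trem2 and Siglech for their share of a sum. The alternatives were 4 other scalings, other filters and probe rules, 1 slide alone, array weights, blocks for replicate number and slide row, and each array left out. Replicate numbers did not pair samples across groups (r of deviations -0.07 to 0.07).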

Additional observations from a re-analysis of the deposited data

How the results depend on the processing

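No astrocyte identity gene passed in any of the 6 comparisons under any of the 22 alternatives (20 for the interaction, 21 for the FoxA2-Cre comparison), and the smallest adjusted p was 0.0645 (Glul, FoxA2-Cre). With every probe on its own, the median over 13 probes in GFAP-Cre hybrids against pooled unfused cells was -0.19. The median over the 8 genes moved from -1.07 to -0.30 with normexp. Leaving out each array in turn, it ran from -1.07 to -0.43 there, from -0.83 to 1.00 against R26Y hybrids and from -1.51 to 0.19 for R26Y hybrids against pooled unfused cells, and the counts of genes passing in these 2 comparisons ran from 0 to 2182 and from 0 to 2317. The 171 genes of the FoxA2-Cre comparison became 112 with normexp, 104 with array weights, 0 with only the arrays of the slide and 61 to 557 with an array left out. The 18 genes of the interaction became 2 with quantile normalisation, 42 with the authors' matrix, 50 with array weights and 0 to 79 with an array left out. The cause of these moves was not tested. The single-slide and left-out fits also had fewer arrays, and the part of that in the moves was not tested either. With the replicate block, 106 genes passed in the FoxA2-Cre comparison and 0 in the interaction, and the pairing changed no call for the astrocyte identity genes. For the second Gfap probe, the 4 other scalings with every probe on its own were chosen after seeing the data. Fits that leave out an array take the lone sample of its group to vary like the other groups. With 2 arrays a group and most FoxA2-Cre spots near background, small differences cannot be resolved, and large ones can fail to pass. In simulated data with 200 of 32209 genes changed, 0% of the changed genes passed at a log2 change of 4 and 74.5% at 6. These shares were the same for GFAP-Cre hybrids against pooled unfused cells and for FoxA2-Cre hybrids against FoxA2-Cre unfused cells.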

Other observations

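Of 20 reactive astrocyte genes, 17 were tested between GFAP-Cre hybrids and pooled unfused cells, where 8 lay above 0 and 9 below, with a median log2 difference of -0.06 (0.03 over all genes), and 0 passed in limma or at an unadjusted p of 0.05 (1.62% of all genes). Ptx3, a pentraxin gene, was -2.18 and -3.13 in GFAP-Cre hybrids, -3.76 and -3.96 in pooled unfused cells and -3.69 and -5.17 in R26Y hybrids, so both GFAP-Cre hybrids were above the 4 other arrays. This held for 1 of the 17 genes and for 9.74% of all genes. Its difference from the mean of both groups was 1.49 ± 0.63 (SE; limma, unadjusted p 0.0460, adjusted p 1.00), and 1.12 without R26Y hybrid replicate 2. An unadjusted p under 0.05 was found for 2.02% of all genes. Osmr, the oncostatin M receptor gene, was -3.02 and -3.71 in GFAP-Cre hybrids and -3.66 and -8.73 in R26Y hybrids, the last not above background, and the groups overlapped. Lcn2, which encodes lipocalin 2 and is also made by neutrophils, was 0.06 and -0.32 in FoxA2-Cre hybrids and 4.69 and 2.69 in FoxA2-Cre unfused cells. The difference was -3.82 ± 0.77 (SE; limma, adjusted p 0.133) and did not pass.

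Of 8 radial glia and neural stem cell genes, 7 were tested and 0 passed in the 6 comparisons (limma). In GFAP-Cre hybrids against pooled unfused cells 3 lay above 0 and 4 below, with a median of -0.18. Nes, the nestin filament gene, was -2.27 and -3.11 in GFAP-Cre hybrids, -2.76 and -2.96 in pooled unfused cells and -3.01 and -3.99 in R26Y hybrids, and was above background on all 10 arrays. Pax6, a transcription factor gene of radial glia, had a difference of -1.98 ± 0.99 (SE; limma, adjusted p 1.00) between GFAP-Cre and R26Y hybrids.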
